A study of Mus musculus with 3 samples.

Results

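The postsynaptic density is the protein-rich layer under the membrane of excitatory synapses, and 42 genes of its scaffold and of proteins bound to that scaffold were described here. The genes were taken by symbol from a fixed list. All 42 were found among the 39377 rows of the deposited table, each on 1 row. RNA-seq was done on total RNA of whole hippocampus from wild-type (WT) C57BL/6 mice at postnatal day 14. The 3 libraries formed 1 group, here called libraries 1, 2 and 3, and carried no other allele or treatment in the labels. The tissue is labelled as mixed cell types. No label ties a library to an animal, so every p-value reflects the spread between 3 samples that may be technical repeats. Since the libraries hold no contrast of conditions, each gene was set against another gene of the same library.

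The density is built in layers. Membrane-associated guanylate kinases of the Dlg family sit nearest the membrane and hold glutamate receptors through their PDZ domains. Dlgap proteins (also called GKAP or SAPAP) bind the guanylate kinase domain of the Dlg proteins and the PDZ domain of Shank proteins, and Shank proteins bind Homer, which links them to metabotropic glutamate receptors. GTPase regulators, actin adaptors and other PDZ proteins attach to this core and shape dendritic spines and receptor traffic. At many synapses of the hippocampus the density is known as a site where long-term potentiation and depression are expressed.

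Levels are given in FPKM (fragments per kilobase of transcript, scaled to the mapped fragments of the library), a unit per length that allows genes to be set side by side, although FPKM also differ through GC content, mappability and the transcript model used. The value after ± is an SD (n = 3 libraries). The spacing of low FPKM values put the depth at about 3710000, 4160000 and 5980000 fragments in libraries 1, 2 and 3. A level of 3 fragments on a transcript of 2 kb then corresponded to 0.465, 0.410 and 0.288 FPKM, which covers counting error only. All 54 markers of 12 hippocampal, vascular, choroid plexus and blood cell types were above 0 in at least 1 library. The 4 choroid plexus markers summed to 397, 1082 and 1308 FPKM in libraries 1, 2 and 3. In the same order, the 5 neuron markers summed to 1695, 1533 and 1506 FPKM. The 4 excitatory neuron markers summed to 1301, 1382 and 1479 FPKM, and the 5 GABAergic markers to 787, 926 and 753 FPKM. These neuron lists thus differed in which library was highest. In mixed tissue, fewer cells of a type and less RNA per cell cannot be told apart.

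The scaffold genes were broadly present. In all 3 libraries 41 of 42 stood at 1 FPKM or more, and 42 of 42 were above 0. Of all 39377 genes, 19046 were above 0 in at least 1 library and 13337 averaged 1 FPKM or more. These criteria are looser than those used for the members. The share of all genes meeting the members' criteria in every library was not computed. The median of the 42 means was 23.3 FPKM, against 10.5 FPKM for the 13337 genes with a mean of at least 1 FPKM, and 30 of 42 lay above the latter value. Of the 42 genes, 4 had a mean of at least 100 FPKM, 8 lay from 50 to 100, 12 from 20 to 50, 7 from 10 to 20, 8 from 5 to 10, 2 from 1 to 5 and 1 under 1 FPKM. The range from Nrgn at the top to Baiap2l1 at the bottom spanned more than 3 orders of magnitude.

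**Figure D1:**
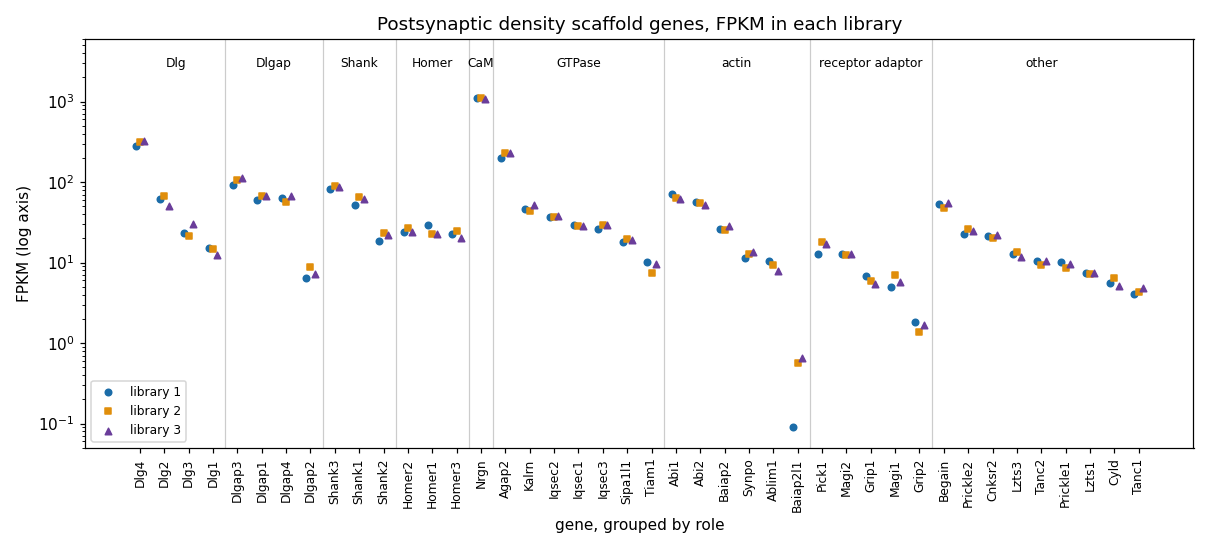
FPKM (log axis) of each of the 42 genes in library 1 (circles), library 2 (squares) and library 3 (triangles), grouped by role; CaM marks the calmodulin-binding protein gene Nrgn. Nrgn stands highest near 1099 FPKM and Dlg4 next near 305 FPKM, while Baiap2l1 lies under 1 FPKM in all libraries.

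The genes at the ends of this range were Nrgn and Baiap2l1. The RefSeq sequence (GRCm38.p6) upstream of their annotated starts is shown to set the most and the least abundant member side by side. Only bases in no GENCODE exon are printed, and capitals mark the letters GGGCGG on either strand (the GC box bound by Sp1 family factors).
Nrgn, chr9:37552905-37552995, minus strand, 91 of the 250 bases upstream: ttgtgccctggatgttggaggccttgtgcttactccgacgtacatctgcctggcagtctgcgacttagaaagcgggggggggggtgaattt
Baiap2l1, chr5:144358113-144358362, minus strand, all 250 bases upstream: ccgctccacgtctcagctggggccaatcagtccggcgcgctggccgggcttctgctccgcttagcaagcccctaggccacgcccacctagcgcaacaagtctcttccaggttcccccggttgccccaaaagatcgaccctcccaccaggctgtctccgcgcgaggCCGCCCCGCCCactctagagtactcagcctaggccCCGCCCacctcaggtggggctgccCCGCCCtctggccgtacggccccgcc
The Baiap2l1 stretch held 4 matches, a pair of them overlapping, and 21 CG dinucleotides, and the shorter Nrgn stretch held no match and 4 CG dinucleotides. The whole RefSeq window of Nrgn, chr9:37552696-37552995, did hold GGGCGG, in bases not printed here, and 17 CG dinucleotides, so these letters were found at both genes. RefSeq windows from 250 bases before to 50 after annotated starts were found for 36 of the 42 genes, with 71 windows in all. GGGCGG was present in 42 of these 71 windows (59.2%), against 61.4% of 13473 windows of genes with a mean of at least 1 FPKM and 35.7% of all 32851 windows. The letters TATAAA were present in 8 of 71 windows (11.3%), against 7.10% and 13.6% in the same sets. CACGTG, an E-box, was present in 5 of 71 (7.04%), against 9.60% and 7.15%. These are matches of letters on either strand, not tested sites.

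Nrgn encodes neurogranin, a small postsynaptic protein that binds calmodulin when calcium is low. It stood at 1096, 1116 and 1084 FPKM in libraries 1, 2 and 3, with a mean of 1099 ± 15.8 FPKM and a coefficient of variation of 1.44%. The 3 libraries were nearly level in the deposited scaling. Counting error in library 1 was also 1.44%, so the small SD may understate the uncertainty of this level. Nrgn ranked 71 among the 19046 genes above 0 and made up 40.4% ± 0.987 of the summed FPKM of the 42 genes. In GRCm38, Nrgn (Entrez 64011) spans chr9:37544493-37552745 on the minus strand.

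Dlg4 encodes PSD-95, the most studied scaffold of the density, and served as the reference for all other genes. It stood at 279, 315 and 320 FPKM, with a mean of 305 ± 22.4 FPKM and rank 340. Library 1 was the lowest. Dlg4 (Entrez 13385) spans chr11:70017203-70045535 on the plus strand, and it carried 11.2% ± 0.574 of the summed FPKM of the set. Agap2, which encodes PIKE, a GTPase-activating protein for Arf that has a GTPase-like domain of its own, came next at 196, 230 and 231 FPKM (mean 219 ± 19.7 FPKM). Library 1 was again the lowest for Agap2, and Dlg4 was 1.39 ± 0.0256 times Agap2 in the 3 libraries.

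Against Dlg4, 38 of 40 other members tested were lower by more than 2-fold, 1 was higher and 1 was left uncalled (limma's treat test of log2(FPKM + 1) differences beyond 1 log2 unit, two-sided, with Benjamini-Hochberg adjustment over 13336 genes). The background was 94.1% of all genes lower and 1.00% higher, so the share of lower members was near that of all genes. The gene called higher was Nrgn, in 3 of 3 libraries, with a log2 difference of 1.85 (SE 0.117, adjusted p = 0.000168 by limma), and Nrgn was 3.62 ± 0.279 times Dlg4. Agap2 was not called, although it was below Dlg4 (log2 difference -0.48, SE 0.111; lower in 3 of 3 libraries; limma adjusted p = 1.00), so its distance was not shown to exceed 2-fold. The called gene nearest to Dlg4 was Dlgap3, with a log2 difference of -1.56 (SE 0.112; limma adjusted p = 0.00119). The median log2 difference from Dlg4 was -3.65 over the 40 members tested and -4.76 over all genes tested. Baiap2l1, with a mean under 1 FPKM, was not tested.

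In the Dlg family, Dlg4 carried 75.4% ± 2.0 of the summed FPKM. Dlg2, which encodes PSD-93, stood at 62.0, 67.9 and 50.6 FPKM (mean 60.2 ± 8.79), with library 3 the lowest. Dlg3, the X-linked gene of SAP102, a scaffold prominent in young synapses, stood at 23.4, 21.5 and 30.0 FPKM (mean 24.96 ± 4.42), with library 3 the highest. Dlg1, the gene of SAP97, a scaffold that also occurs in epithelia, was the lowest at 15.1, 14.6 and 12.2 FPKM (mean 14.0 ± 1.52). The order Dlg4, Dlg2, Dlg3, Dlg1 was found in 3 of 3 libraries, with no overlap between neighbouring genes. All 3 paralogues were called lower than Dlg4, with log2 differences of -2.33 (SE 0.142) for Dlg2, -3.57 (SE 0.133) for Dlg3 and -4.35 (SE 0.136) for Dlg1.

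Dlgap proteins form the middle layer. Dlgap3, known for excessive grooming in mice that lack it, stood at 90.9, 106 and 111 FPKM (mean 103 ± 10.4) and held 43.3% ± 1.87 of the family. Dlgap1 was at 59.2, 66.5 and 66.5 FPKM (mean 64.1 ± 4.21) and Dlgap4 at 64.2, 56.4 and 66.2 FPKM (mean 62.3 ± 5.16). These latter genes overlapped across libraries, and Dlgap4 was not called against Dlgap1 (log2 difference -0.04, SE 0.121). Dlgap2 stood far below at 6.48, 8.91 and 7.31 FPKM (mean 7.57 ± 1.24). It was called lower than Dlgap1, the family reference, by a log2 difference of -2.93 (SE 0.116; limma adjusted p = 5.30e-06; lower in 3 of 3 libraries), against a background of 73.3% of all genes lower than Dlgap1. Dlgap3 was 1.60 ± 0.0643 times Dlgap1 and was not called, with 4.88% of all genes called higher.

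Shank genes encode the large scaffolds of the deep layer. Shank3, whose loss causes Phelan-McDermid syndrome in humans, was the highest at 80.9, 88.3 and 87.2 FPKM (mean 85.5 ± 3.96). Shank1 stood at 51.6, 64.9 and 62.1 FPKM (mean 59.5 ± 7.02) and Shank2 at 18.6, 23.6 and 22.3 FPKM (mean 21.5 ± 2.60). The order Shank3, Shank1, Shank2 was found in 3 of 3 libraries without overlap, and all 3 genes were lowest in library 1. Shank3 held 51.5% ± 1.89 of the family and was 4.01 ± 0.319 times Shank2. Shank2 was 0.361 ± 0.00216 times Shank1. Counting error alone was larger than that spread, at 4.08% for Shank2 and 2.34% for Shank1 in library 1 on the longest coding transcript. The closeness of the 3 ratios was therefore not read as a shared movement of the pair. Shank2 was called lower than Shank1 (log2 difference -1.43, SE 0.155; limma adjusted p = 0.0126), against a background of 70.8% of all genes lower than Shank1. That call was lost without replicate 2 (limma adjusted p = 0.0919) and without replicate 3 (0.10), while the log2 difference stayed at -1.43 and -1.42. Shank3 was 1.45 ± 0.110 times Shank1 and was not called, with 5.05% of all genes called higher.

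The Homer genes were close to equal. Homer2 stood at 24.1, 26.9 and 24.2 FPKM (mean 25.1 ± 1.59), Homer1 at 29.4, 22.7 and 22.6 FPKM (mean 24.9 ± 3.92) and Homer3 at 22.4, 24.5 and 20.2 FPKM (mean 22.4 ± 2.15). Each library gave another order of the 3 genes, and their ranges overlapped. Against Homer1, neither Homer2 (log2 difference 0.02, SE 0.187) nor Homer3 (-0.14, SE 0.186) was called, against a background of 46.0% of all genes lower and 11.6% higher. Homer1 was higher in library 1 than in both other libraries. Homer1 also produces the short activity-induced form Homer1a, and the table, with 1 row per gene, does not separate it from the long forms. Of the exon bases of Homer3, 25.4% overlap those of Ddx49 on the opposite strand (mean 17.3 FPKM), and whether counting used strand is not given in the sources used here, so the Homer3 value is uncertain.

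Summed over each family, the Dlg genes stood highest, followed by the Dlgap, Shank and Homer genes. The Dlg genes summed to 404 ± 21.4 FPKM, the Dlgap genes to 237 ± 15.1, the Shank genes to 166 ± 13.6 and the Homer genes to 72.3 ± 4.72. The Dlg sum was 1.71 ± 0.0585 times the Dlgap sum, 2.43 ± 0.0724 times the Shank sum and 5.61 ± 0.583 times the Homer sum. In every library the sums kept this order. The place of the Dlg sum rested on Dlg4: the other 3 Dlg genes summed to 99.1 ± 5.75 FPKM, below the Dlgap and Shank sums. The median gene stood at 42.6 FPKM in the Dlg family, 63.2 in Dlgap, 59.5 in Shank and 24.9 in Homer. These are ratios of transcripts in mixed tissue and not of proteins in the density.

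**Figure D2:**
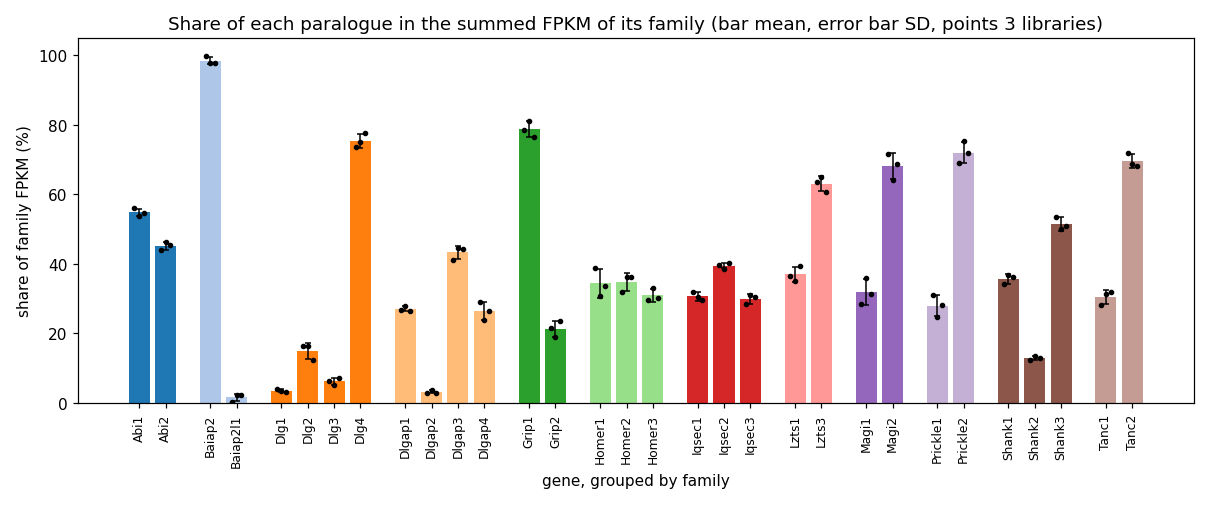
Share (%) of each paralogue in the summed FPKM of its family, for 12 families; bars are means, error bars SDs and points the 3 libraries. Dlg4 holds 75.4% of the Dlg sum, whereas the 3 Homer genes and the 3 Iqsec genes lie between 29.9% and 39.5% on average.

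Among GTPase regulators, Agap2 was followed by Kalrn, which encodes kalirin, an exchange factor for Rac that enlarges spines, at 45.9, 43.8 and 51.6 FPKM (mean 47.1 ± 4.03). Tiam1, another Rac exchange factor, stood at 10.2, 7.46 and 9.60 FPKM (mean 9.08 ± 1.43), and Kalrn was 5.25 ± 0.691 times Tiam1. The groups of values of these genes did not overlap. The Iqsec genes encode Arf exchange factors. Iqsec2, an X-linked gene of intellectual disability, led with 36.5, 36.4 and 38.3 FPKM (mean 37.1 ± 1.05), above both paralogues in 3 of 3 libraries. Iqsec1 stood at 29.4, 28.7 and 28.2 FPKM (mean 28.8 ± 0.633) and Iqsec3, which occurs at inhibitory synapses with gephyrin, at 26.1, 29.3 and 28.9 FPKM (mean 28.1 ± 1.74). Iqsec1 and Iqsec3 overlapped, and neither Iqsec2 (log2 difference 0.35, SE 0.0874) nor Iqsec3 (-0.03, SE 0.0941) was called against Iqsec1, with 52.2% of all genes lower and 10.9% higher. Sipa1l1, which encodes SPAR, a GTPase-activating protein for Rap that binds PSD-95, stood at 18.2, 19.7 and 19.3 FPKM (mean 19.1 ± 0.816).

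Genes of actin adaptors spanned a wide range. Abi1 and Abi2, whose products belong to the WAVE complex that drives branched actin, stood at 71.6, 63.1 and 61.6 FPKM (mean 65.4 ± 5.41) and at 56.3, 54.2 and 51.4 FPKM (mean 54.0 ± 2.41). Abi2 was below Abi1 in 3 of 3 libraries, at 0.827 ± 0.0376 times its value, which was not called, with 73.8% of all genes lower than Abi1 and 4.80% higher. Baiap2, the gene of the membrane-bending adaptor IRSp53, was at 25.9, 25.04 and 28.5 FPKM (mean 26.5 ± 1.82). Its paralogue Baiap2l1, known from epithelia, was at 0.09, 0.56 and 0.65 FPKM. On its transcript of 3247 bases these values correspond to about 1, 7 and 12 fragments, so no order of the libraries was resolved for it. Baiap2 made up 98.4% ± 1.07 of the pair. Synpo, the gene of synaptopodin in the spine apparatus, stood at 11.5, 12.7 and 13.7 FPKM (mean 12.6 ± 1.07), and Ablim1, an actin-binding LIM protein gene, at 10.6, 9.42 and 7.89 FPKM (mean 9.29 ± 1.34).

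PDZ adaptors of receptor traffic were among the low members. Pick1, whose product binds AMPA receptor subunits and protein kinase C, stood at 12.6, 18.3 and 17.1 FPKM (mean 16.0 ± 2.98), and its highest value was 1.45 times its lowest. Library 1 was low for Pick1, and 18.6% of its exon bases lie in a second annotated gene on the same strand, so its value is uncertain. Grip1 and Grip2, AMPA receptor adaptor genes, stood at 6.75, 5.98 and 5.49 FPKM (mean 6.07 ± 0.635) and at 1.85, 1.39 and 1.69 FPKM (mean 1.64 ± 0.234). Grip2 was called lower than Grip1 (log2 difference -1.42, SE 0.123; limma adjusted p = 0.0160; lower in 3 of 3 libraries), against a background of 8.62% of all genes lower than Grip1. The call was lost without replicate 2 (limma adjusted p = 0.212), with a log2 difference of -1.36 (SE 0.277). Magi2, a scaffold gene of neuronal and kidney junctions, stood at 12.65, 12.46 and 12.60 FPKM (mean 12.6 ± 0.0985) and Magi1 at 5.03, 6.97 and 5.75 FPKM (mean 5.92 ± 0.981). Magi2 was 2.16 ± 0.364 times Magi1 in FPKM, higher in 3 of 3 libraries, but its distance was not shown to exceed 2-fold (log2 difference 0.98, SE 0.196; limma adjusted p = 0.881), with 36.5% of all genes higher than Magi1 and 8.50% lower.

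The remaining adaptors lay between 4 and 56 FPKM. Begain, whose product binds the guanylate kinase domain of PSD-95, stood at 53.4, 47.1 and 55.5 FPKM (mean 52.0 ± 4.41). Cnksr2, an X-linked Ras-pathway scaffold gene linked to epilepsy, was at 21.6, 20.4 and 22.1 FPKM (mean 21.4 ± 0.875). In the deposited scaling the coefficient of variation was 8.48% for Begain and 4.09% for Cnksr2. Prickle2 and Prickle1, planar cell polarity genes, stood at 22.5, 25.8 and 24.5 FPKM (mean 24.2 ± 1.68) and at 10.1, 8.48 and 9.63 FPKM (mean 9.40 ± 0.825). Prickle2 was 2.60 ± 0.410 times Prickle1, and its distance of 1.28 log2 units (SE 0.129) just missed the threshold (limma adjusted p = 0.0760; higher in 3 of 3 libraries), with 27.3% of all genes higher than Prickle1 and 19.5% lower. Tanc2 stood at 10.5, 9.41 and 10.3 FPKM (mean 10.1 ± 0.576) and Tanc1 at 4.12, 4.28 and 4.85 FPKM (mean 4.42 ± 0.384), both genes of ankyrin-repeat scaffolds. The 2 Tanc genes did not overlap, and Tanc2 was 2.29 ± 0.220 times Tanc1, a distance not called beyond 2-fold (limma adjusted p = 0.668), with 44.0% of all genes higher than Tanc1 and 1.43% lower. Lzts3, the gene of ProSAPiP1, which links SPAR to Shank, was at 12.7, 13.6 and 11.6 FPKM (mean 12.6 ± 1.0), and Lzts1, the gene of PSD-Zip70, at 7.34, 7.29 and 7.50 FPKM (mean 7.38 ± 0.110). Lzts3 was above Lzts1 in 3 of 3 libraries, at 1.71 ± 0.161 times its level, and was not called, with 33.0% of all genes higher than Lzts1 and 13.9% lower. Cyld, a deubiquitinase gene, stood at 5.60, 6.45 and 5.14 FPKM (mean 5.73 ± 0.665).

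Across the 12 families, 18 comparisons with the family reference were tested, and 6 genes were called lower by more than 2-fold: Dlg1, Dlg2, Dlg3, Dlgap2, Shank2 and Grip2. None was called higher by limma, with 1 gene, Prickle2, at an unadjusted p under 0.05. When any difference was tested instead of one beyond 2-fold, 7 were higher and 7 lower. The references differed in level, so the share of all genes called lower ran from 94.1% against Dlg4 to 1.43% against Tanc1. The order of the paralogues was the same in all 3 libraries for 9 of the 12 families, the others being Dlgap, Homer and Iqsec. Of these 9, all but Dlg and Shank hold only 2 genes of the set, so only 2 orders were possible for them.

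In the deposited scaling, the median coefficient of variation was 8.46% over the 39 members with a mean of at least 5 FPKM, against 11.2% over the 9202 genes at that level. A coefficient under 10% was found for 25 of the 39 members (64.1%) and for 43.0% of all those genes. The highest library was less than 1.5 times the lowest for 41 of 42 members, Baiap2l1 being the exception. With each library rescaled to a sum of 1000000 FPKM, this held for 34 of 42, the others being Baiap2l1, Begain, Dlg3, Dlgap4, Grip2, Kalrn, Pick1 and Tiam1. The same share over all genes was not computed, so both counts describe the members only. After rescaling, the median coefficients of variation were 14.8% over the 39 members and 16.8% over all genes at that level. A coefficient under 10% was then found for 6 of the 39 members and for 18.4% of all those genes. The spread thus depends on the scaling, and so does whether the members exceed all genes in that share. Library 1 counting error on the longest coding transcript was 1.26% for Dlg4, 4.10% for Homer1, 5.81% for Magi2 and 8.78% for Lzts1. It would be larger on a shorter transcript. The coefficients of variation of Magi2 (0.784%) and Lzts1 (1.49%) were below it, so their small SDs understate the uncertainty of their levels.

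**Figure D3:**
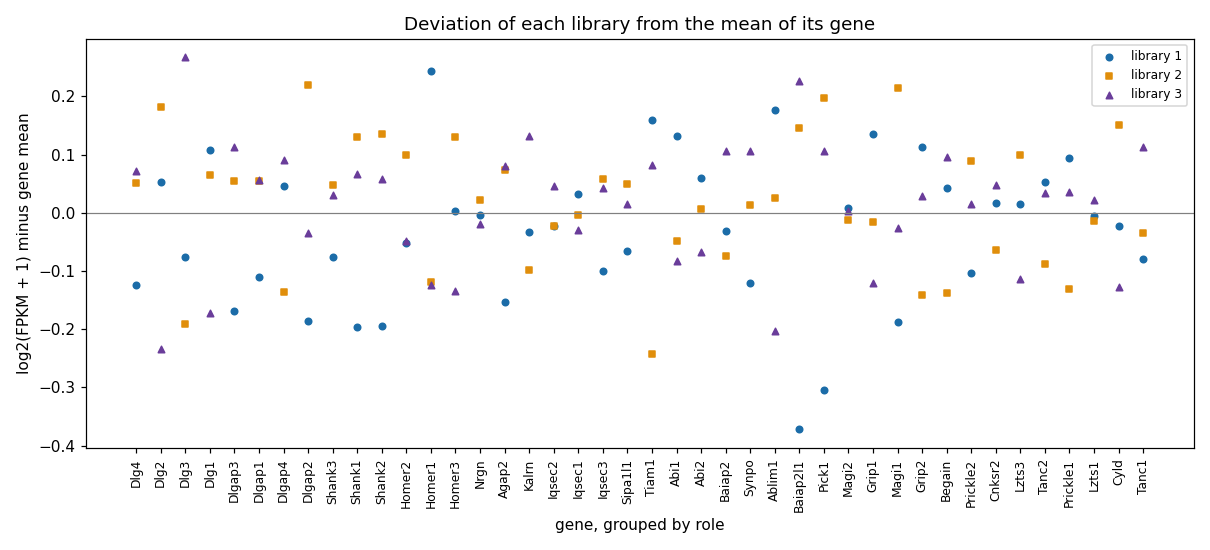
Deviation of each library from the mean of its gene, in log2(FPKM + 1), for the 42 genes grouped by role (circles, squares and triangles are libraries 1, 2 and 3). Library 1 lies below the other libraries for Dlg4, Dlgap1, Dlgap3, the 3 Shank genes and Agap2, and above them for Homer1, Abi1 and Ablim1.

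In the deposited scaling, 12 members were highest in library 1, 15 in library 2 and 15 in library 3, against 36.5%, 32.6% and 30.9% of all genes. Library 1 was the lowest for 17 members, among them Dlg4, Dlgap1, Dlgap2, Dlgap3, Shank1, Shank2, Shank3 and Agap2, library 2 for 13 and library 3 for 12, against 33.0%, 33.2% and 33.8% of all genes. Library 1 was the highest for 12, among them Homer1, Abi1, Abi2, Dlg1, Grip1 and Tiam1. The medians of the members' deviations were -0.02, 0.02 and 0.03 log2 units in libraries 1, 2 and 3. The 5 immature neuron markers summed to 804, 737 and 772 FPKM, most of it from Stmn1, and the other 4 (Dcx, Sox11, Sox4 and Neurod1) to 63.0, 43.1 and 39.8 FPKM, highest in library 1. The choroid plexus markers differed as given above, and the part of both lists in these shifts was not tested. When each library was rescaled to a sum of 1000000 FPKM, 37 members were highest in library 3, 5 in library 1 and 0 in library 2, as were 65.2%, 24.1% and 10.7% of all genes, so the order of libraries depends on the scaling.

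Lists of other synaptic genes were set against Dlg4 in the same fit, where 94.1% of all genes were lower and 1.00% higher, and the count of each list stands beside those shares as a description. Of 24 genes listed as partners of the scaffold (among them receptors, kinases and adhesion proteins), 20 were lower by more than 2-fold, 1 was higher and 3 were not called. Whether each listed gene is a partner of the scaffold was not checked here. Camk2a, the kinase gene of long-term potentiation, was higher at 820 ± 91.1 FPKM (log2 difference 1.42, SE 0.113), with 715, 863 and 882 FPKM in libraries 1, 2 and 3. The not called were the dynein light chain genes Dynll1 (435 ± 54.4 FPKM) and Dynll2 (132 ± 8.53) and the kinase gene Camk2b (195 ± 22.6). Dynein light chain binds the Dlgap proteins. The glutamate receptor subunit genes Gria1 (93.8 ± 9.45 FPKM), Grin1 (70.1 ± 10.6) and Gria2 (67.1 ± 14.5) were all lower than Dlg4. Their list had a median of 20.8 FPKM, near the 23.3 FPKM of the scaffold genes.

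Of the 14 spine actin genes, 11 were lower than Dlg4 and 3 were not called. Among those not called were the spinophilin gene Ppp1r9b (209 ± 22.0 FPKM) and the drebrin gene Dbn1 (136 ± 9.53), and Sptan1 stood at 104 ± 14.4 FPKM. Of 18 relatives of the members outside the set, 14 were tested and 13 were lower. Agap3, at 175 ± 16.0 FPKM, was not called, and the next were Agap1 (15.6, 18.6 and 58.8 FPKM in libraries 1, 2 and 3), Trio (19.3 ± 4.0 FPKM), the paralogue of Kalrn, and Sipa1l3 (16.6 ± 2.21). Agap1 was higher in library 3 than in both other libraries.

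The inhibitory postsynapse list, 9 of 10 listed genes with values, had 9 of 9 lower than Dlg4, near the 94.1% of all genes. Insyn1, the gene of a protein of inhibitory synapses, stood at 51.6 ± 2.32 FPKM. Gphn, the gene of gephyrin, the main inhibitory scaffold, stood at 26.4, 23.7 and 21.0 FPKM, below Dlg4 by a log2 difference of -3.63 (SE 0.140). Iqsec3 is in both this list and the scaffold set.

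Of 15 presynaptic genes, 9 were lower than Dlg4, 1 was higher and 5 were not called. Snap25, a SNARE gene of vesicle fusion, was higher at 781 ± 66.9 FPKM, a call lost without replicate 1 and without replicate 2. Not called were Syp (492 ± 56.1), Vamp2 (483 ± 19.96), Slc17a7 (452 ± 38.6), Syn2 (188 ± 11.9) and Syt1 (164 ± 21.7 FPKM). The list had a median of 89.5 FPKM. No difference between lists was tested.

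**Figure D4:**
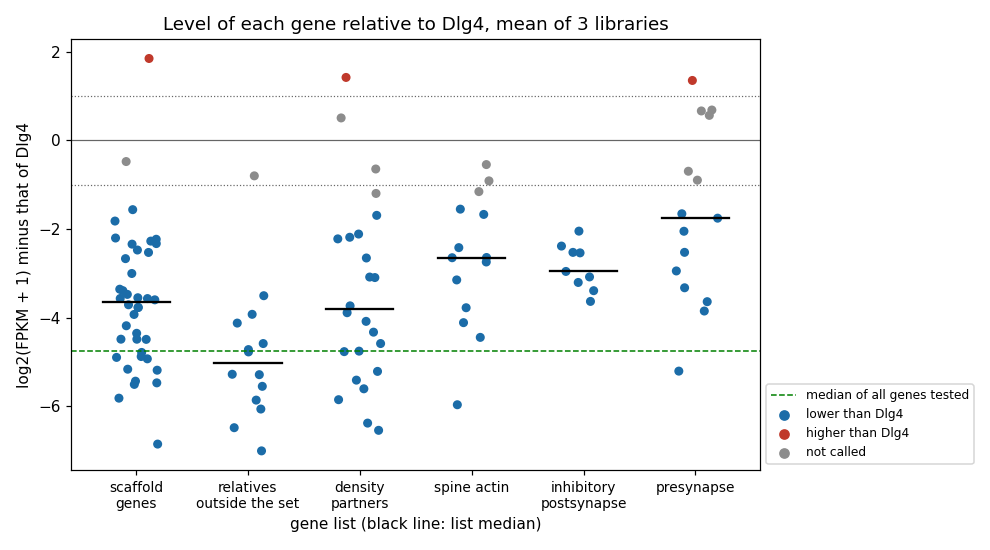
Difference of log2(FPKM + 1) from Dlg4, mean of 3 libraries, for each tested gene of 6 lists; colours give the limma call, black lines the list medians, dotted lines the 2-fold limits and the dashed line the median of all genes tested (-4.76). Nrgn, Camk2a and Snap25 are the points called higher than Dlg4.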

How the data were processed

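The authors deposited 1 table of FPKM values for 3 libraries, per the file headers, with 1 column per library, identified by its title. Bowtie2 and GRCm38 (mm10) are named in the submitters' processing notes; for the counting tool, annotation and strand setting, not given in the sources used here. FPKM were used as deposited. The members and lists were chosen with earlier results of these data known. Over genes averaging 1 FPKM or more, log2(FPKM + 1) minus that of a reference gene was formed per library and tested with limma 3.58.1 (R 4.3.3, treat beyond 1 log2 unit, Benjamini-Hochberg adjustment over all genes, threshold 0.05). This scale understates differences of low genes. Dlg4 was the general reference, and the lowest-numbered member that of each other family. Named were all 42 members and, of each partner list, the 4 highest genes and those not called lower. Gria1, Gria2, Grin1 and Gphn fall outside this rule and were chosen after their values were seen, and some genes the rule names are not reported here. Depth was estimated from whole-fragment steps of low values of genes with 1 GENCODE M21 transcript, with settings chosen on these values: 92.5%, 91.8% and 90.5% of them lay within 0.15 of a whole fragment, where evenly spread values would give 30%. Positions and promoter windows are from RefSeq GRCm38.p6, in which 42 of 42 members matched, and exon overlaps from GENCODE M21. Python 3.11.15 was used.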

Additional observations from a re-analysis of the deposited data

How the results depend on the processing

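The count of 38 members lower than Dlg4 ranged from 36 to 39 over 9 alternatives (pseudocounts of 0.1 and 0.5 FPKM, no filter, a mean of at least 5 FPKM, a null of no difference, rescaling and leaving out each replicate), and Nrgn was called higher in each. The 36 came with the filter at 5 FPKM, under which Grip2 and Tanc1 were not tested. The 39 came with no filter, where Baiap2l1 entered, and with the null of no difference, where Agap2 was called lower. No member still tested lost its call against Dlg4. With a null of no difference, the counts higher than the reference rose to 283 for all genes against Dlg4, 7 for family members, 2 for the density partners and 4 for presynaptic genes, since that null is met by smaller differences. Leaving out replicates, the presynaptic count ran from 0 to 1 and the median member level from 22.7 to 23.0 FPKM. Rescaling to a sum of 1000000 gave a median of 32.0 FPKM and members highest in library 1, 2 and 3 of 5, 0 and 37. The calls of Shank2 and Grip2 given above were lost without single replicates; the cause was not tested. Depth limits Baiap2l1 and Grip2. Genes were paired with their reference within each library, but conditions could not be compared because there is only 1 group.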
